A study of Homo sapiens with 6 samples.

Results

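The chaperone and heat shock families were examined in the human breast cancer line MDA-MB-453 after introduction of a hairpin against the small RNA tRF-1-Ser. Genes were taken from the count table by symbol: HSP followed by one of the letters A to H (HSPA, HSPB and so on), HSP90, or DNAJA, DNAJB or DNAJC with a number. In total 121 symbols matched, and the 47 that ended in P, or in P and digits, were left out as pseudogenes. HSPBP1 and HSPBAP1, which are functional genes whose symbols end in P1, left with them. The remaining 74 of 36517 genes were the members, and 64 of them were expressed highly enough to be tested. The rule reads symbols, so it also took HSPG2 (the matrix proteoglycan perlecan), HSPB11 (a component of intraflagellar transport), the noncoding gene HSPC324 and HSPA7, a pseudogene without a P in its symbol.

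All 6 libraries came from cells collected at day 3. The 3 control libraries (lv_con) were from cells stably transduced with a lentivirus that carried a negative-control hairpin, and the 3 shtRF libraries (lv_shtRF) were from cells transduced with a lentivirus that carried the hairpin against tRF-1-Ser. tRF-1-Ser is a fragment of the precursor of a serine transfer RNA, released from its 3′ trailer. The lentiviral transduction itself was therefore common to both groups. The libraries measured messenger RNA, so the level of tRF-1-Ser was not analysed here and the groups rest on their labels. Nothing said whether replicates were separate transductions, and p-values then measure only the spread between these samples. The breast epithelial genes ERBB2, FOXA1, KRT8, KRT18 and EPCAM were all expressed, with KRT8 and KRT18 higher and ERBB2 lower in shtRF, and the leukocyte marker PTPRC, the endothelial marker PECAM1, the oestrogen receptor gene ESR1 and the fibroblast collagen COL3A1 were too low to test. Another fibroblast collagen, COL1A1, was present and fell from 32.2 ± 2.87 to 20.9 ± 0.329 CPM (counts scaled to a common library size, SD, n = 3), and CD68, a macrophage marker whose exons overlap other genes over 85.8% of their length, rose from 4.71 ± 0.509 to 6.97 ± 1.25 CPM. A further endothelial marker, VWF, was tested at 0.101 ± 0.0644 CPM in control and 0.196 ± 0.0715 CPM in shtRF (edgeR adjusted p = 0.241). The part of other cells in the results was not tested.

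Molecular chaperones bind unfolded stretches of other proteins and help them to fold. HSP70 proteins (the HSPA genes) do so in cycles of ATP hydrolysis that J proteins (the DNAJ genes) start, HSP90 proteins finish the folding of kinases and hormone receptors, small heat shock proteins (HSPB) hold unfolded proteins without ATP, and HSPD1 with HSPE1 forms a folding chamber in mitochondria. The cytosol, the endoplasmic reticulum (ER) and the mitochondria each have their own HSP70. Stress in the cytosol raises the cytosolic set through the transcription factor HSF1, which binds heat shock elements, and stress in the ER raises the ER set through the unfolded protein response (UPR), which acts on ER stress response elements.

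Because these elements are the known switches of the cytosolic and the ER set, they were searched for in the 250 bases upstream of each RefSeq gene start (GRCh38.p14). The heat shock element of 3 units was TTCNNGAANNTTC or GAANNTTCNNGAA, and each is found when the other is read on the opposite strand. It was in a window of 6 of the 64 members that had one (9.375%) and of 0.557% of 27305 genes. The sequences below are the elements of the most abundant members, with the matched bases in capitals, read on the strand of the gene. They lie at chr14:102087112-102087140 for HSP90AA1, chr6:44247770-44247798 and chr6:44247823-44247851 for HSP90AB1, chr11:123062171-123062199 for HSPA8 and chr2:197500062-197500090 for HSPD1. The HSPD1 run holds 2 overlapping matches and lies upstream of one of 2 RefSeq starts of that gene. HSP90AB1 is on the plus strand and the other 3 genes are on the minus strand.
HSP90AA1: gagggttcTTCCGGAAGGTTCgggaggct
HSP90AB1 first: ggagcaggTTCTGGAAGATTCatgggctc
HSP90AB1 second: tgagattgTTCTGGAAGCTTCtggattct
HSPA8: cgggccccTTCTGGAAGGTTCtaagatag
HSPD1: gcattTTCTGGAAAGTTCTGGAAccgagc

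DNAJB6 and the stress-inducible HSPA6 also held a 3-unit element, and HSPA8 held another further upstream. The shorter form of 2 units, TTCNNGAA or GAANNTTC, overlaps every 3-unit match and was in a window of 20 members (31.25%) and of 14.0% of all genes. The next sequences show it for members that rose most (DNAJA4, chr15:78264460-78264489, plus strand; HSPB1, chr7:76302480-76302509, plus strand) and for a stretch that HSPA1A and HSPA1L share between their starts (chr6:31815426-31815455, plus strand for HSPA1A and minus strand for HSPA1L).
DNAJA4: ggaacctccgcGAAGGTTCtaggcctttgt
HSPB1: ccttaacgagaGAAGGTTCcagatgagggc
HSPA1A: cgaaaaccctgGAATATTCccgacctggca
HSPA1L: tgccaggtcggGAATATTCcagggttttcg

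The ER stress response element, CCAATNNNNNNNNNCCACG or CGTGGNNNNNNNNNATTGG, was in 2 members, HSPA5 and HSP90B1 (3.125%), and in 0.0916% of all genes. The elements shown are at chr9:125241386-125241414 on the minus strand for HSPA5 and at chr12:103930211-103930239 on the plus strand for HSP90B1, which held another closer to its start. A match to letters is a description of the window and not evidence of binding.
HSPA5: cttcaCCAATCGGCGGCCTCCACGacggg
HSP90B1: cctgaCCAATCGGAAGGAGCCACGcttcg

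The families as a whole changed about as often as other genes. With edgeR's quasi-likelihood test and an adjusted p under 0.05, 16 of the 64 tested members were higher in shtRF, 10 were lower and 38 did not pass. That is 40.6% of the members, against 39.5% of all 19628 genes tested, and 25% of members higher and 15.6% lower against 20.6% and 18.9% of all genes. The median log2 fold change was 0.06 over the members and -0.00 over all tested genes. The groups did not overlap in 31 members (48.4%), against 48.7% of all genes. Among genes with a mean of at least 2 CPM, 16 of 57 members were higher and 8 lower, or 42.1% in all, against 50.4% of 13189 genes called (27.1% higher and 23.3% lower). Changes were small, since 20 of the 26 called members changed by less than 1.5-fold and only HSPA12A by more than 2-fold. The 38 members that did not pass lay between -0.93 (HSPB6) and 0.32 (HSPA6) on the log2 scale, and both of these genes were under 1 CPM. The other 10 members had at most 10 counts in any library and were not tested, among them the small heat shock genes HSPB2, HSPB3, HSPB7, HSPB8 and HSPB9 and the testis J protein gene DNAJB8.

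The families did not move as 1 block, and the HSPA, DNAJB and DNAJC families each held genes that rose and genes that fell (plot of each member's change). The only DNAJB fall was DNAJB13, which was under 1 CPM and shares 23.0% of its exon length with other genes. The DNAJC falls, DNAJC9 and DNAJC14, share 29.1% and 58.1% of theirs. In the HSP90 family 2 of 3 genes rose, in the DNAJA family 2 of 4, and among the 3 tested small heat shock genes 2, one of them HSPB11. In the HSP70 family 2 of 13 tested genes were higher and 5 lower, with a median of -0.12. Of the 26 DNAJC genes 4 were higher and 2 lower, and of the 11 tested DNAJB genes 4 were higher and 1 was lower. Over all tested genes 20.6% were higher and 18.9% lower, and these small counts were compared neither with that nor with each other by a test.

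**Figure D1:**
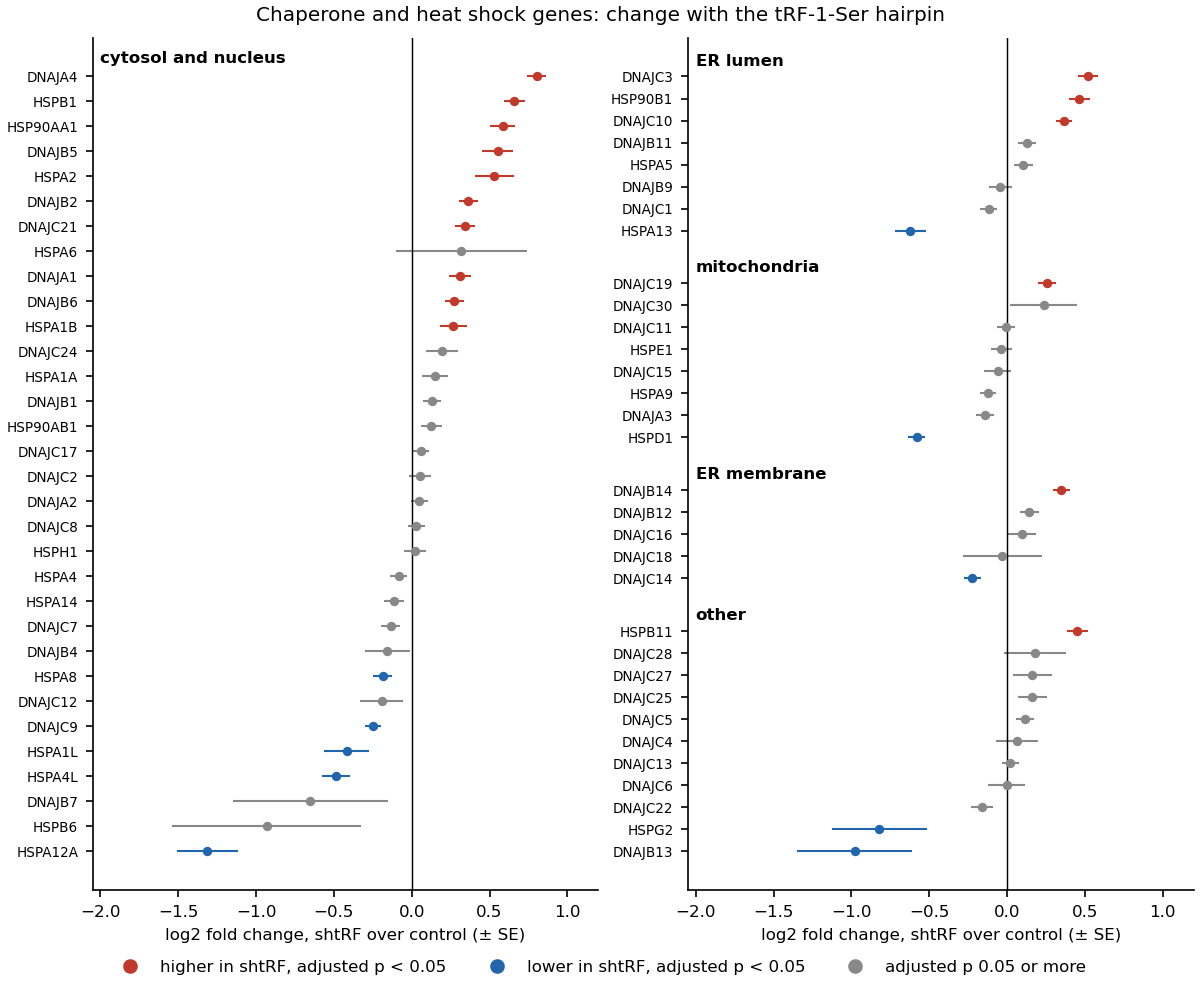
Log2 fold change of each of the 64 tested members, shtRF over control, with its standard error (horizontal axis), ordered within each compartment. Red points were higher and blue points lower at an adjusted p under 0.05 (edgeR). DNAJA4 leads the cytosolic genes at 0.80 and HSPA12A ends them at -1.32, the ER lumen runs from DNAJC3 at 0.52 to HSPA13 at -0.62, and among mitochondrial genes HSPD1 stands apart at -0.58.

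By compartment, assigned from the known location of each protein, the cytosol and nucleus held 32 tested members, of which 10 were higher and 5 lower with a median of 0.06. In the ER lumen 3 of 8 were higher and 1 was lower, with a median of 0.12. In mitochondria 1 of 8 was higher and 1 lower, with a median of -0.05. The 5 J proteins of the ER membrane had 1 higher and 1 lower, and of the 11 tested members of other or several locations 1 was higher and 2 were lower. Among the latter, the J proteins of vesicle traffic DNAJC5 (0.12), DNAJC6 (-0.00) and DNAJC13 (0.02) did not pass. The share called was 46.9% in the cytosol and nucleus, 50% in the ER lumen and 25% in mitochondria. It was 40% at the ER membrane and 27.3% for other or several locations. Over all tested genes the share was 39.5%, and 50.4% among genes with at least 2 CPM. The medians lay within 0.12 of 0 in all 3 main compartments, and the difference between compartments was not tested.

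Among cytosolic chaperones the HSP90 genes were the most abundant, with a mean of 1819 RPKM (reads per kilobase of exon, scaled to library size) for the constitutive HSP90AB1 and 1737 RPKM for the stress-responsive HSP90AA1. HSP90AA1 had 6738, 6744 and 8504 CPM in the control libraries and 9880, 11537 and 11551 CPM in the shtRF libraries. All 3 shtRF libraries were above all 3 controls, and the log2 fold change was 0.58 ± 0.08 (SE; edgeR adjusted p = 4.75e-06). HSP90AB1 had 5004, 4897 and 5687 CPM in control and 5137, 5997 and 5866 CPM in shtRF. Its groups overlapped, and its log2 fold change of 0.12 ± 0.07 did not pass (edgeR adjusted p = 0.162). On the RPKM scale HSP90AA1 was below HSP90AB1 in control, at 1421 against 1775, and above it in shtRF, at 2052 against 1864. This order depends on the length used, here all annotated exon bases (5248 for HSP90AA1 and 2980 for HSP90AB1). Their longest protein-coding transcripts have 3510 and 2674 bases. In CPM, HSP90AA1 was above HSP90AB1 in every library, so no change of the more abundant gene can be read from RPKM.

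Control replicate 3 stood high for many of these genes. It was the highest of the 3 controls for 32 of the 57 members with at least 2 CPM (56.1%), against 35.5% of all genes at that level. Without that library, HSP90AB1 (0.20, edgeR adjusted p = 0.0303) and HSPA1A (0.29, edgeR adjusted p = 0.0012) passed as higher. So did DNAJB1 (0.19, edgeR adjusted p = 0.0133), HSPA5 (0.18, edgeR adjusted p = 0.0156) and DNAJB11 (0.19, edgeR adjusted p = 0.0142). DNAJC1 passed as lower (-0.15, edgeR adjusted p = 0.0449), and HSPA8 no longer passed (-0.12, edgeR adjusted p = 0.136). The members higher in shtRF were then 22 and the members lower 9, while 3950 of 20171 genes tested in that fit were higher and 3601 lower.

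**Figure D2:**
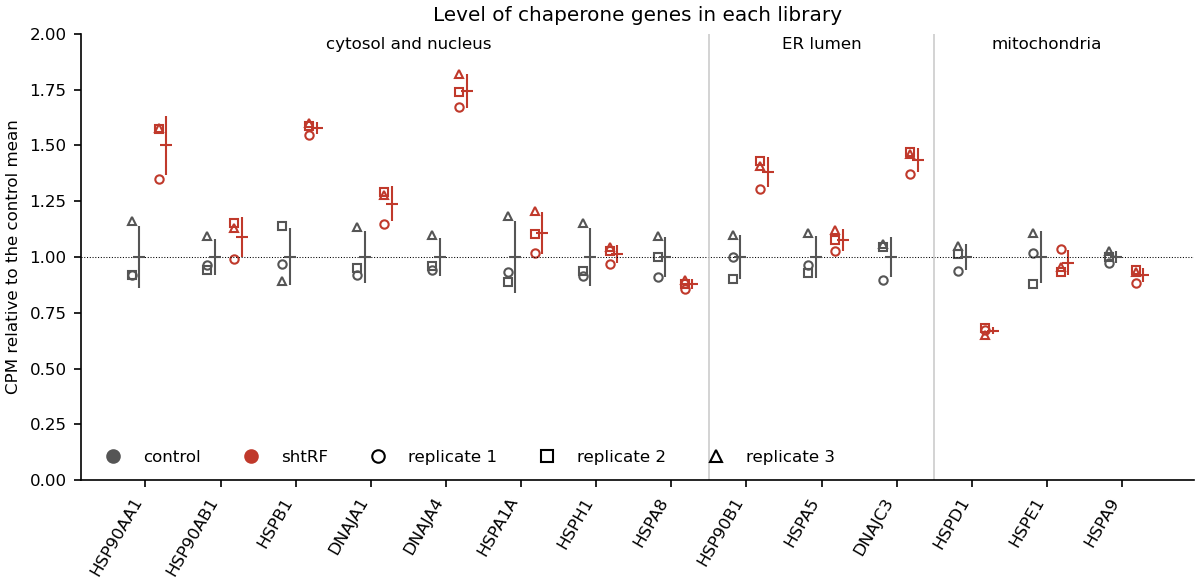
CPM of 14 chaperone genes in each of the 6 libraries, divided by the mean of the 3 control libraries of that gene (vertical axis, no unit), with the mean and SD of each group as bars. The shtRF libraries lie above every control library for HSP90AA1, HSPB1, DNAJA1, DNAJA4, HSP90B1 and DNAJC3 and below every one for HSPA8, HSPD1 and HSPA9, while control replicate 3 (grey triangles) is the highest control for 13 of the 14 genes, all but HSPB1.

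The HSP70 genes of the cytosol did not follow HSP90AA1. HSPA8, the constitutive HSP70, had 1135, 1245 and 1363 CPM in control and 1068, 1099 and 1121 CPM in shtRF, where every library lay below the lowest control (log2 fold change -0.19 ± 0.06, edgeR adjusted p = 0.0197). HSPA1A and HSPA1B, the stress-inducible pair, share 69.9% and 72.7% of their 100-base windows with other transcripts, so that the division of reads between them is uncertain. HSPA1A had 387, 369 and 492 CPM in control and 423, 458 and 501 CPM in shtRF, with overlapping groups (0.15 ± 0.08, edgeR adjusted p = 0.163). HSPA1B had 408, 393 and 537 CPM and 486, 533 and 590 CPM, also overlapping, with a log2 fold change of 0.27 ± 0.09 that passed (edgeR adjusted p = 0.0191).

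Less abundant HSP70 relatives included HSPA12A, the largest fall of all tested members. HSPA4L, an HSP110-type exchange factor, had 48.2, 54.8 and 67.3 CPM in control and 36.2, 43.0 and 42.5 CPM in shtRF, without overlap (-0.49 ± 0.09, edgeR adjusted p = 0.000133). The other exchange factors of that type did not pass, HSPH1 at 0.02 ± 0.07 (edgeR adjusted p = 0.867) and HSPA4 at -0.08 ± 0.06 (edgeR adjusted p = 0.257). HSPA12A, a distant relative of HSP70, fell from 3.21, 3.19 and 2.91 CPM to 1.64, 1.19 and 0.887 CPM (-1.32 ± 0.20, edgeR adjusted p = 1.22e-05), and HSPA1L, the neighbour of HSPA1A, from 3.80, 3.32 and 3.1 CPM to 2.61, 2.50 and 2.55 CPM (-0.42 ± 0.14, edgeR adjusted p = 0.026). HSPA2, known from spermatogenesis, was the HSP70 with the largest rise, from 3.41, 4.24 and 4.16 CPM to 5.44, 6.29 and 5.35 CPM (0.53 ± 0.13, edgeR adjusted p = 0.00182). These 3 genes were low, while HSPA6, which is transcribed mainly under strong stress, lay between 0.246 and 0.342 CPM in all 6 libraries (0.32 ± 0.42, edgeR adjusted p = 0.591).

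The small heat shock gene HSPB1 (HSP27) and the farnesylated J protein gene DNAJA4 had the largest rises among members with at least 2 CPM. HSPB1 had 64.0, 75.4 and 58.9 CPM in control and 102, 105 and 106 CPM in shtRF (0.66 ± 0.07, edgeR adjusted p = 8.3e-08). DNAJA4 had 71.8, 73.4 and 83.9 CPM in control and 128, 133 and 139 CPM in shtRF (0.80 ± 0.06, edgeR adjusted p = 6.95e-10). Both were without overlap, and each held the 2-unit heat shock element shown above. Most other small heat shock genes were not expressed at a testable level.

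The J proteins that work with cytosolic HSP70 were mostly higher or did not pass. DNAJA1, a main partner of HSPA8, had 1080, 1117 and 1331 CPM in control and 1352, 1520 and 1502 CPM in shtRF, without overlap (0.31 ± 0.07, edgeR adjusted p = 0.00117). DNAJB5 had 9.47, 8.66 and 11.5 CPM and 13.3, 15.8 and 14.4 CPM (0.55 ± 0.10, edgeR adjusted p = 0.000128). DNAJB2 (0.36), DNAJB6 (0.27), which suppresses aggregation of polyglutamine proteins, and DNAJC21 (0.34), a factor of ribosome assembly, also rose. DNAJB1, the classic heat-inducible J protein, had 102, 94.9 and 109 CPM in control and 107, 114 and 114 CPM in shtRF, which overlap (0.13 ± 0.06, edgeR adjusted p = 0.0733), and DNAJA2 stood at 0.05 (edgeR adjusted p = 0.531). DNAJC9, which chaperones histones, fell by 0.25 ± 0.05 (edgeR adjusted p = 0.000529), but its exons overlap those of FAM149B1 over 29.1% of their length, whose log2 fold change was -0.26.

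The inducible members that respond most to heat shock thus gave a divided picture: HSP90AA1, HSPB1 and HSPA1B were higher, and HSPA1A, DNAJB1 and HSPH1 did not pass. This division depended on control replicate 3. Without that library HSPA1A and DNAJB1 passed as higher too, and HSPH1 still did not (0.13, edgeR adjusted p = 0.0739). Of 6 tested members with the 3-unit heat shock element, 2 were higher (HSP90AA1 and DNAJB6), 2 lower (HSPA8 and HSPD1) and 2 did not pass. Of the 18 tested members with the 2-unit element 6 were higher and 4 lower, and of 41 with a window but no element 9 were higher and 6 lower. These are 55.6% and 36.6% called, against 39.5% of all genes and 50.4% of those with at least 2 CPM, and the difference was not tested. HSF1 itself was at 28.5 ± 0.762 CPM in control and 29.9 ± 1.86 CPM in shtRF (0.07 ± 0.06, edgeR adjusted p = 0.448). Among 11 tested HSF1 target genes outside the families 36.4% were called, against 39.5% of all genes and 50.4% of those with at least 2 CPM. Of genes at that level 27.1% were higher and 23.3% lower, and the difference was not tested. None of the 11 was higher and 4 were lower, with a median of -0.06. The 4 were the collagen chaperone SERPINH1 (HSP47), which dropped from 40.7 ± 0.717 to 17.8 ± 0.670 CPM (-1.19 ± 0.06, edgeR adjusted p = 1.63e-12), the immunophilin FKBP4 (-0.30), the HSP70-HSP90 adaptor STIP1 (-0.17, edgeR adjusted p = 0.0261) and CACYBP (-0.15, edgeR adjusted p = 0.048).

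**Figure D3:**
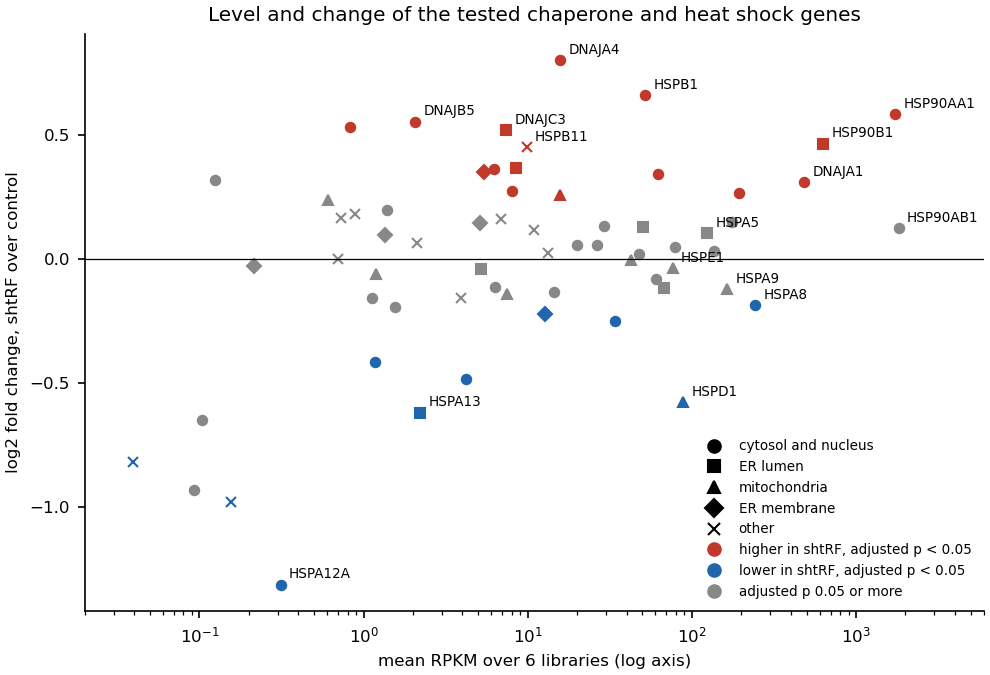
Mean level of each of the 64 tested members over the 6 libraries (horizontal axis, RPKM, log scale) against its log2 fold change, shtRF over control. Shapes give the compartment and colours the edgeR call. HSP90AA1 (1737 RPKM, 0.58), HSP90B1 (629 RPKM, 0.46) and DNAJA1 (481 RPKM, 0.31) are abundant members that rose, while HSP90AB1 (1819 RPKM, 0.12) lies close to 0 and the lowest points belong to genes under 1 RPKM.

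In the ER lumen, HSP90B1 (GRP94, the HSP90 of the ER) rose and its partner HSPA5 (BiP, the HSP70 of the ER) did not pass, although both hold the ER stress response element. HSP90B1 had 2489, 2239 and 2728 CPM in control and 3240, 3549 and 3502 CPM in shtRF, without overlap (0.46 ± 0.07, edgeR adjusted p = 7.39e-06). HSPA5 had 451, 434 and 517 CPM in control and 480, 503 and 524 CPM in shtRF, which overlap (0.10 ± 0.06, edgeR adjusted p = 0.203). The J proteins counted here with the lumen, DNAJC1 among them, also divided. DNAJC3 (P58IPK), which also inhibits the kinase PERK, had 30.6, 35.7 and 36.2 CPM in control and 46.9, 50.2 and 49.9 CPM in shtRF (0.52 ± 0.07, edgeR adjusted p = 1.29e-06), and the disulfide reductase DNAJC10 (ERdj5) rose by 0.37 ± 0.05 (edgeR adjusted p = 4.63e-06). DNAJB11 (ERdj3), at 0.13 ± 0.06 (edgeR adjusted p = 0.0912) which shares 23.2% of its exon length with another gene, did not pass. Nor did DNAJB9 (ERdj4), a sensitive target of the IRE1 and XBP1 arm of the UPR, with 15.3, 15.2 and 14.0 CPM in control and 14.7, 14.3 and 14.3 CPM in shtRF (-0.04 ± 0.08, edgeR adjusted p = 0.709), or DNAJC1 (-0.12, edgeR adjusted p = 0.0995). HSPA13, an HSP70-like protein of the microsomes, went down from 11.3, 12.7 and 9.68 CPM to 7.43, 7.32 and 7.16 CPM (-0.62 ± 0.10, edgeR adjusted p = 3.81e-05). At the ER membrane DNAJB14 rose (0.35 ± 0.05, edgeR adjusted p = 2.13e-05), and DNAJC14 (-0.22 ± 0.06, edgeR adjusted p = 0.0029) shares 58.1% of its exon length with other genes.

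The sensors and transcription factors of the UPR likewise differed in direction. XBP1 had 6761, 6891 and 6111 CPM in control and 7615, 8378 and 8488 CPM in shtRF (0.31 ± 0.06, edgeR adjusted p = 0.000452), a call that limma-trend on log2 RPKM did not give (0.26 on both scales), and EIF2AK3, which encodes PERK, rose by 0.35 (edgeR adjusted p = 0.000104). ATF4, the transcription factor downstream of PERK, had 408, 386 and 259 CPM in control and 256, 231 and 228 CPM in shtRF (-0.56 ± 0.10, edgeR adjusted p = 0.000163). Control replicate 3 was low for ATF4, and without that library the log2 fold change was -0.73. ATF6 (0.18, edgeR adjusted p = 0.0507) and ERN1, which encodes IRE1 (0.07, edgeR adjusted p = 0.512), did not pass. Of all 12 regulators of the heat shock response and the UPR that were tested, 3 were higher and 2 lower (41.7% called), with a median of 0.07. The share called among 25 other ER folding genes was 64%. Both shares stand against 39.5% of all genes and 50.4% of those with at least 2 CPM, without a test. Of the 25 ER folding genes 11 were higher and 5 lower, with a median of 0.04. Among them the ER-associated degradation adaptor SEL1L rose from 249 ± 12.6 to 371 ± 11.8 CPM (0.57), and the lectin chaperone CALR (0.35) and the HSP110-type HYOU1 (0.29) rose. The membrane-bound relative of CALR, CANX (-0.30), PDIA6 (-0.34) and the translocon J protein SEC63 (-0.48) fell.

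In mitochondria the chaperonin genes HSPD1 (HSP60) and HSPE1 (HSP10), which lie head to head on chromosome 2, differed. HSPD1 had 418, 453 and 468 CPM in control and 300, 305 and 291 CPM in shtRF (-0.58 ± 0.06, edgeR adjusted p = 2.3e-08), with all shtRF libraries far below the lowest control. HSPE1 had 155, 134 and 169 CPM in control and 159, 142 and 146 CPM in shtRF, with full overlap (-0.04 ± 0.07, edgeR adjusted p = 0.714). The exons of both genes overlap over 23.9% of the exon length of HSPE1, so part of its counts may be shared with HSPD1. HSPA9 (mortalin), the mitochondrial HSP70, had 786, 809 and 832 CPM in control and 714, 762 and 755 CPM in shtRF. Its groups did not overlap, but its log2 fold change of -0.12 ± 0.05 did not pass (edgeR adjusted p = 0.0775). Its J protein DNAJA3 was at -0.14 (edgeR adjusted p = 0.0632), and DNAJC19, a J protein of the inner membrane, was the only mitochondrial member that rose (0.26 ± 0.06, edgeR adjusted p = 0.00124).

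The 14 other mitochondrial folding and proteolysis genes had 1 higher and 6 lower, with a median of -0.11. The 50% called is close to the 50.4% of all genes with at least 2 CPM, of which 23.3% were lower. GRPEL2, an exchange factor of HSPA9, had 21.4, 21.7 and 12.1 CPM in control and 8.12, 7.31 and 7.77 CPM in shtRF (-1.25 ± 0.15, edgeR adjusted p = 5.08e-07), and its value without control replicate 3 was -1.48. TRAP1, the mitochondrial HSP90, dropped from 116 ± 3.44 to 85.9 ± 3.32 CPM (-0.43, edgeR adjusted p = 1.03e-06), and TIMM44, which tethers HSPA9 to the import channel, by 0.32 on the log2 scale. GRPEL1, the other exchange factor, rose by 0.24 (edgeR adjusted p = 0.0101), although its groups overlapped.

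The summed level of the members was set by few genes. All 74 members together took 2.51 ± 0.219% of counts in control and 2.96 ± 0.133% in shtRF, and HSP90AA1 alone held between 28.7% and 36.9% of the members' summed CPM. The sum over the cytosol and nucleus went from 17757, 17746 and 21160 CPM to 21471, 24608 and 24495 CPM, a ratio of 1.25. Without HSP90AA1 the ratio was 1.08, and the groups overlapped. In the ER lumen the sum went from 3610, 3340 and 3938 CPM to 4438, 4819 and 4780 CPM, a ratio of 1.29, and HSP90B1 made up 90% of that difference. In mitochondria it went the other way, from 1691, 1732 and 1812 CPM to 1492, 1570 and 1533 CPM, a ratio of 0.878. HSPD1 made up most of that difference: its mean went from 446 to 299 CPM, and that of the sum from 1745 to 1532 CPM. These sums carry no test.

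**Figure D4:**
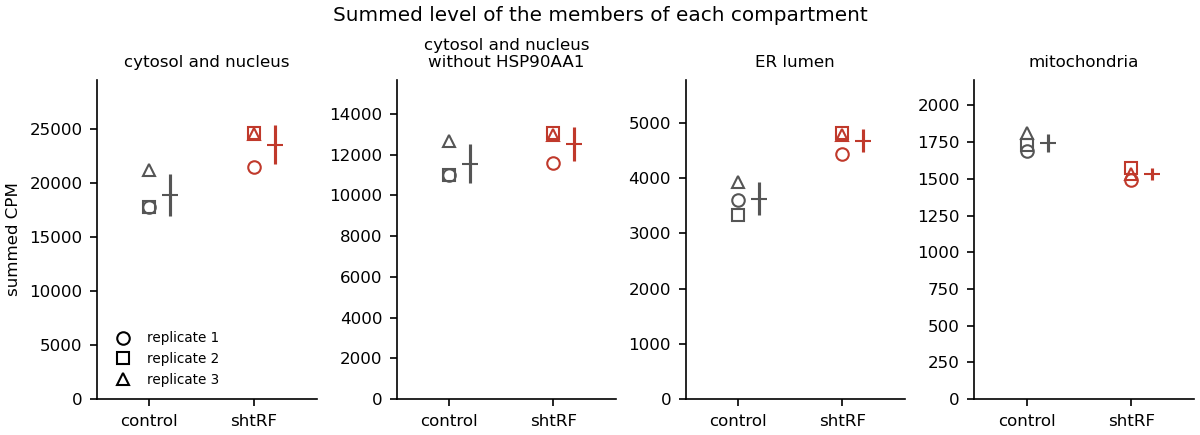
Summed CPM (vertical axes, each from 0) of the members of the cytosol and nucleus, of the same members without HSP90AA1, of the ER lumen and of the mitochondria in each library, with the mean and SD of the 3 libraries per group beside the points. The shtRF libraries lie above the controls for the cytosol and nucleus and for the ER lumen and below them for the mitochondria, and the groups overlap once HSP90AA1 is left out.

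Other cytosolic folding machines and co-chaperones were read from lists of their own. The cytosolic chaperonin CCT, which folds actin and tubulin, had 4 of its 8 subunit genes lower and none higher, with a median of -0.19. That is again 50% called, against 50.4% of all genes with at least 2 CPM, of which 23.3% were lower. CCT2 had 106, 112 and 124 CPM in control and 91.5, 87.9 and 85.9 CPM in shtRF (-0.37 ± 0.06, edgeR adjusted p = 3.49e-05), and TCP1 (-0.31), CCT6A (-0.30) and CCT8 (-0.30) fell similarly. In prefoldin, which hands substrates to CCT, 1 of 6 subunit genes passed (PFDN5, -0.27, edgeR adjusted p = 0.00386). Of 27 tested co-chaperones of HSP70 and HSP90, 4 were higher and 7 lower with a median of -0.00. That is 40.7% called, against 39.5% of all genes and 50.4% of those with at least 2 CPM. The kinase adaptor CDC37 rose from 757 ± 28.8 to 924 ± 71.5 CPM (0.29), and its relative CDC37L1 fell from 21.6 ± 1.15 to 16.0 ± 1.08 CPM (-0.44). Of 4 tested J proteins outside the symbol rule, GAK was higher (0.21) and SEC63 lower.

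**Figure D5:**
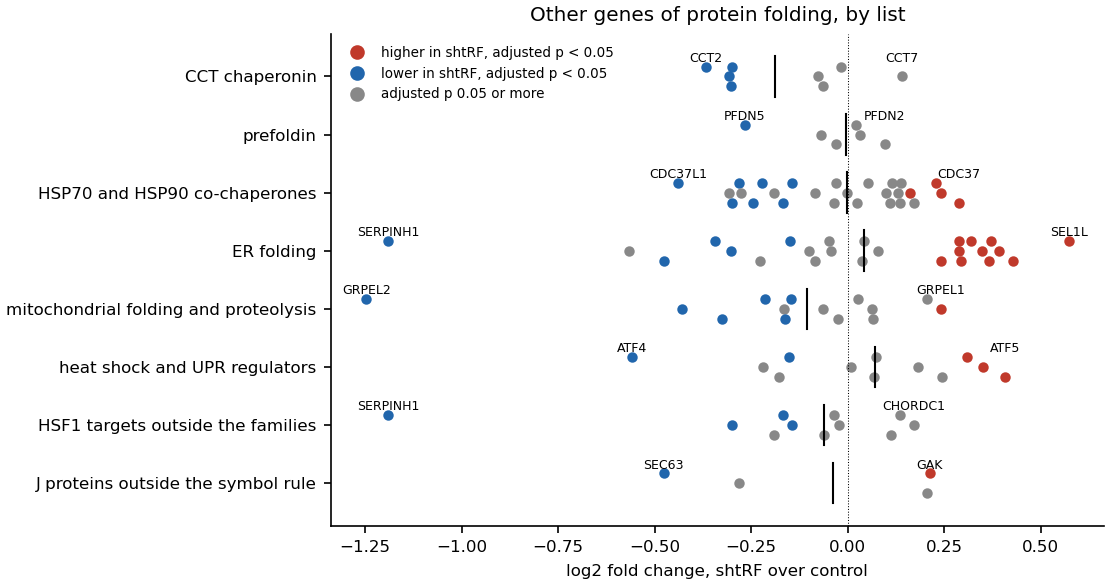
Log2 fold change, shtRF over control (horizontal axis), of each tested gene in 8 lists of folding genes outside the symbol rule (vertical axis), coloured by the edgeR call, with the median of each list as a black bar. The names mark the lowest and highest gene of a list, and a gene in several lists is drawn in each. The CCT genes lie mostly left of 0, with a median of -0.19, and the ER folding genes spread from SERPINH1 at -1.19 to SEL1L at 0.57.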

How the data were processed

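Messenger RNA of 6 MDA-MB-453 libraries was sequenced in read pairs on a NovaSeq machine. The authors deposited raw counts per gene. The submitters' processing notes name Trimmomatic 0.36, featureCounts of Subread 1.5.1, edgeR 3.12.1 and GRCh38, and the aligner is not given in the sources used here. The authors also deposited RPKM values. The part used here held 4991 genes that matched the counts, and 100% of them equalled the RPKM recomputed from the count, the exonic length and the library total, so RPKM was recomputed for all genes. Totals ran from 63541413 to 78917459 counts per library.

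Counts were tested with edgeR 4.0.16 in R 4.3.3 (filterByExpr with a minimum count of 10, TMM factors 0.961 to 1.03, quasi-likelihood test with group as the only term). Adjusted p-values are Benjamini-Hochberg values over the 19628 genes that passed. Errors of CPM values are SDs over 3 libraries. CPM values are scaled with the TMM factors.

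Members, compartments and lists were chosen with earlier results of these data known. Named members were the most abundant of each compartment, the 8 largest rises and 8 largest falls among called members with a mean of at least 2 CPM, and the classic targets of heat shock and of the UPR, and from each list the called genes with the largest changes. Other genes named were chosen after their values were seen. Sequences came from RefSeq promoter windows (GRCh38.p14), and 64 members matched. Shared 100-base windows were counted in GENCODE transcripts. Gene coordinates are on GRCh38. Another marker gene of the line is not reported here.

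The replicate numbers did not pair the libraries: the correlation of deviations from the group means between libraries of the same number was 0.0185, -0.0029 and 0.0045. Alternatives were other scalings and filters, a replicate block, halved counts, DESeq2 1.42.0, limma-trend (limma 3.58.1) on log2 RPKM and leaving out each library.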

Additional observations from a re-analysis of the deposited data

How the results depend on the processing

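The number of members higher (16) and lower (10) stayed within 1.5 times under every alternative. Leaving out each library in turn gave 15 to 22 members higher and 7 to 9 lower. Over all genes those fits gave 3375 to 3950 higher and 3053 to 3601 lower. The excess of higher members was smaller with upper quartile scaling (16 higher and 15 lower) and limma-trend on either scale (15 and 13). It was also smaller when every library needed at least 10 counts (16 and 13). Calls over all genes moved the same way, so this was not particular to the members. The main fit called 4046 genes higher and 3704 lower, and upper quartile scaling 3508 and 4174. Limma-trend called 2903 and 3840 on log2(RPKM + 0.1), and 2900 and 3803 on log2(RPKM + 1). The stricter count filter gave 3777 and 3778. The replicate block gave 17 members higher and 11 lower. The median of cytosolic members, 0.06, was 0.0033 with limma-trend on log2(RPKM + 0.1) and 0.0031 on log2(RPKM + 1). The median over all tested genes was -0.0498 and -0.0247 in these 2 fits, against -0.0025 in the main fit. The median shift of all genes from the main fit was -0.0517 and -0.0464. With a library left out the cytosolic median was 0.024 to 0.104. The cytosol then held 9 to 13 higher and 3 to 5 lower members (3 without shtRF replicate 3). In the ER lumen 2 members were lower with limma-trend on either scale, with upper quartile scaling and with lumen and membrane members counted as 1 class, and leave-one-out gave 3 to 5 higher, 1 to 2 lower and a median of 0.065 to 0.186, the highest values coming without control replicate 3. In mitochondria 2 members were lower with DESeq2, halved counts and the replicate block, and 3 with at least 10 counts in every library, limma-trend and upper quartile scaling. Leave-one-out gave 1 to 1 higher, 1 to 2 lower (2 without control replicate 1) and a median of -0.107 to -0.024. The cause was not tested.

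Over 60 named genes and their alternatives, 861 of 900 values kept direction and call, 20 lost the call, 19 gained it and 0 turned. HSPA1B lost it in 6, HSPA1L and STIP1 in 3 each, and CD68 and FKBP4 in 1 each. HSPA8 lost it in 2 (without control replicate 3 or shtRF replicate 3), and XBP1 and GAK in 2 (limma-trend on both scales). HSPA9 gained it in 5 (-0.175 to -0.126), DNAJC1 in 4 (-0.171 to -0.148) and HSPA1A in 3, the replicate block among them. The replicate block, which the numbers do not warrant, ended no call of another named gene.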

Other observations

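Ratios of RPKM values within a library, which do not depend on its scaling, were taken for 5 pairs of partner genes. Their size does depend on the exonic lengths used, which are the same in every library. Only the difference between groups can therefore be read, and not whether a ratio is above or below 1. The pairs were chosen after their values were seen, so they are given without a test. The ratio of HSP90AA1 to HSP90AB1 was 0.765, 0.782 and 0.849 in control and 1.09, 1.09 and 1.12 in shtRF. In the ER, the ratio of HSP90B1 to HSPA5 was 4.60, 4.31 and 4.40 in control and 5.63, 5.88 and 5.57 in shtRF. The ratio of DNAJA1 to its partner HSPA8 was 1.69, 1.59 and 1.73 in control and 2.25, 2.46 and 2.38 in shtRF. In mitochondria, the ratio of HSPD1 to HSPE1 was 1.25, 1.57 and 1.29 in control and 0.882, 1.0 and 0.928 in shtRF. The ratio of HSPA1B to HSPA1A, which share most of their sequence, was 1.04, 1.05 and 1.07 in control and 1.13, 1.15 and 1.16 in shtRF. In each of the 5 pairs the groups did not overlap, which pairs chosen by their values can show through that choice alone.

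HSPB11, which despite its symbol belongs to the intraflagellar transport complex, had 24.5, 26.7 and 29.7 CPM in control and 36.7, 37.0 and 37.1 CPM in shtRF (0.45 ± 0.07, edgeR adjusted p = 1.42e-05). Perlecan (HSPG2) and the sperm J protein gene DNAJB13 were under 1 CPM in every library and fell by 0.82 (edgeR adjusted p = 0.0364) and 0.98 (edgeR adjusted p = 0.0412) on the log2 scale. The exons of DNAJB13 overlap another gene over 23.0% of their length, and that gene had a log2 fold change of -0.89.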
